A study of Mus musculus with 6 samples.

Results

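Receptors that set the production of cAMP were examined in the cerebellum of *Slc39a8*-NSKO and control mice. They are 8 genes of the 53715 in the deposited table, taken by name as G protein-coupled receptors of the brain that act through Gs or Gi, and each was found in the table. The receptors that couple to Gs are *Adrb1*, *Adora2a*, *Adcyap1r1*, *Crhr1*, and *Drd1*, and those that couple to Gi are *Adora1*, *Cnr1*, and *Drd2*. In the table they are listed as ENSMUSG00000035283.4 (*Adrb1*), ENSMUSG00000042429.8 (*Adora1*), ENSMUSG00000020178.6 (*Adora2a*), ENSMUSG00000029778.12 (*Adcyap1r1*), ENSMUSG00000018634.10 (*Crhr1*), ENSMUSG00000044288.6 (*Cnr1*), ENSMUSG00000021478.6 (*Drd1*), and ENSMUSG00000032259.8 (*Drd2*). RNA came from whole cerebellum of male C57BL/6 mice (C57BL/6J in the methods), 4 weeks old, with 3 mice in each group. In *Slc39a8*-NSKO mice, *Synapsin I-Cre* deletes the floxed alleles of the metal ion transporter gene *Slc39a8* in neurons, and the paper notes that this Cre can vary in expression between brain regions. The control mice are labelled WT in the deposit and named as *Slc39a8* fl/fl in the paper, so that which alleles they carry is not settled here, and glia, vessels, and blood of either group keep the gene. The labels name no treatment, and the methods give each sample as the cerebellum of a single mouse.

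A Gs-coupled receptor that binds its ligand activates adenylyl cyclase, cAMP rises, protein kinase A is released, and CREB and other factors can then be phosphorylated. A Gi-coupled receptor inhibits the cyclase and, through its βγ subunits, opens potassium channels and closes presynaptic calcium channels. In the cerebellum, CB1 cannabinoid and A1 adenosine receptors are known for holding back glutamate release from the parallel fibers of granule cells, receptors for CRH and PACAP for acting on Purkinje cells and the fibers that reach them, and β-adrenergic receptors for the response to noradrenergic fibers from the locus coeruleus. *Drd1*, *Drd2*, and *Adora2a* are best known from the striatum, where they divide the projection neurons of the direct and indirect pathways.

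The sequences before 3 of these genes are shown because they are the most abundant receptor, *Cnr1*, and the pair with an unadjusted p below 0.05 in edgeR's test, *Adrb1* and *Drd2*. RefSeq windows on GRCm38.p6 reach from 250 bases before a transcription start to 50 after it, and 7 of the 8 receptors had 11 such windows. *Adora2a* had none. Capitals mark the CRE pentamer TGACG (or CGTCA on the other strand), the core of a CREB site, and the GC box GGGCGG (or CCGCCC), and the motifs do not overlap here. Windows are chr4:33924014-33924313 for *Cnr1*, chr19:56721867-56722166 for *Adrb1*, and chr9:49340153-49340452 for *Drd2*, each on the plus strand. The RefSeq starts differ from the gene starts given below, and each window shown ends before the latter. For *Cnr1* the most upstream of its windows is shown. Another, chr4:33924394-33924693, spans the gene start given below and held 0 GC boxes.
Cnr1: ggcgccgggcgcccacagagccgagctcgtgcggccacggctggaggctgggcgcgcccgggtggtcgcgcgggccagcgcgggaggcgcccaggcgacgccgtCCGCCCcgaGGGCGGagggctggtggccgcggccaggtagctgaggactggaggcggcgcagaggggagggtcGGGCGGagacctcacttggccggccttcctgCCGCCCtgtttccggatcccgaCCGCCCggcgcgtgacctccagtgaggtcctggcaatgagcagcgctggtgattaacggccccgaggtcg
Adrb1: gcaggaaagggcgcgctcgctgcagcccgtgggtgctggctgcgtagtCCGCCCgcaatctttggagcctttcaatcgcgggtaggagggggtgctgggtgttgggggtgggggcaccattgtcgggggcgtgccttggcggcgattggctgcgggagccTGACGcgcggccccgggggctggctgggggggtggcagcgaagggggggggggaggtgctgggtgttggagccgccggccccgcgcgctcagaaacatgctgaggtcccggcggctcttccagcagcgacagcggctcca
Drd2: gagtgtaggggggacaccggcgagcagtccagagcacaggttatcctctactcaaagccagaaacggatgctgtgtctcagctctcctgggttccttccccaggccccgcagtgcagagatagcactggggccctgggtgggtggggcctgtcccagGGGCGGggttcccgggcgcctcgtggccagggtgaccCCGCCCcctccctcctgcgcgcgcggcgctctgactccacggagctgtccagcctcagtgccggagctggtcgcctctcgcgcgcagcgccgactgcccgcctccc

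The full CRE TGACGTCA was in 0 of the 11 windows, against 1.79% of the 32851 windows of all genes. The pentamer was in 1 of the 11, the window of *Adrb1*, where its first base lies at −90 with the start as 0, against 20.8% of all windows. A GC box was in 8 of the 11 windows, against 35.7% of all windows. Each of the 7 receptors had at least 1 window with it, and no share by gene was computed. These windows had a GC content of 46.3% to 76.3%, and that of all windows was not computed, so nothing is read from the GC boxes. The window of *Cnr1* shown above held 5 GC boxes, and 2 other windows of this gene held 0. These are matches of letters in short windows of a reference genome.

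The 6 libraries held between 14431260 and 20844267 counts on genes, with control mice 2 and 3 the shallowest. Counts of the targeted gene *Slc39a8* were 99, 46, and 44 for control mice 1 to 3 against 38, 40, and 41 for the *Slc39a8*-NSKO mice. The groups did not overlap, as for 10.3% of all genes tested (edgeR, adjusted p = 0.534). Markers of cerebellar neurons were abundant in every mouse, with summed levels of 5928 to 7085 CPM (counts scaled to a common library size) over 6 Purkinje cell genes and 4439 to 4840 CPM over 6 granule cell genes. Of 11 markers of striatal projection neurons other than the receptors, *Gpr6* and *Six3* had at most 3 counts in a mouse, while *Ppp1r1b*, which Purkinje cells also express, had between 3940 and 5807. Microglia markers (5 genes) summed to 66.1 to 74.6 CPM in control and 77.5 to 81.3 CPM in *Slc39a8*-NSKO mice. In edgeR's test 0 of the 5 passed an adjusted p of 0.05. An unadjusted p below 0.05 was found for 1 (*Csf1r*, higher), beside 5.39% of all genes in either direction. Choroid plexus markers (6 genes) summed to 767 to 1112 CPM in control and 900 to 1550 CPM in *Slc39a8*-NSKO mice, with log2 fold changes above 0 for all 6 (median 0.38). In edgeR's test 0 of the 6 passed an adjusted p of 0.05. For 3 (*Folr1*, *Kl*, and *Clic6*) the unadjusted p was below 0.05, beside the same 5.39%. Of the 6 markers, *Folr1* alone did not overlap between the groups, as for 10.3% of all genes tested, with means of 2.34 and 4.58 CPM. Their part in the values below was not tested. In bulk tissue, fewer cells of a type and less RNA per cell cannot be told apart.

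Levels of the receptors spanned almost the whole range of genes tested. Per kilobase of annotated exon, *Cnr1* was the most abundant at a mean of 58.8 CPM over the 6 mice, above 95.8% of the genes tested. *Adora1* followed at 49.4, *Crhr1* at 26.5, and *Adcyap1r1* at 18.9 CPM per kilobase. These 4 receptors did not overlap with each other in any mouse. Far below them stood *Adora2a* at 0.893 and *Adrb1* at 0.841 CPM per kilobase, whose ranges over the mice overlapped, so that their order is not settled. *Drd2* at 0.214 and *Drd1* at 0.0617 were the lowest and overlapped too. Exon length was taken as the union of all annotated exons, which lowers the value of a gene with long isoforms that are not in use.

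**Figure D1:**
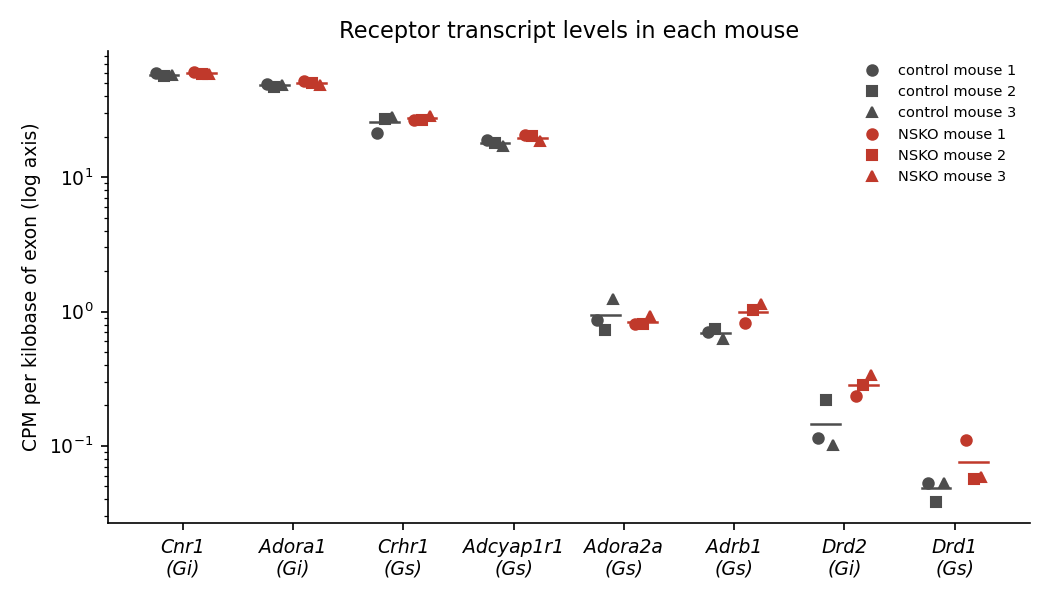
Level of each receptor in each mouse, in CPM per kilobase of exon on a log axis, with control mice in grey, *Slc39a8*-NSKO mice in red, a symbol for each mouse, and a bar at the mean of each group. The 4 abundant receptors lie between 17.0 and 60.6 and the other 4 at or below 1.24.

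The Gi-coupled receptors *Cnr1* and *Adora1* made up most of the signal in each mouse. Summed per kilobase over the 8 receptors, Gi-coupled receptors took a share of 70.2% ± 1.83 in control against 69.2% ± 0.579 in *Slc39a8*-NSKO mice (SD, n = 3 each), and it lay between 68.7% and 72.3% in every mouse. The 5 Gs-coupled receptors gave sums of 42.2, 46.8, and 47.0 CPM per kilobase for the control mice, against 49.0, 49.1, and 49.1 for the *Slc39a8*-NSKO mice. The sums of the groups therefore did not overlap, and they are made up almost entirely of *Crhr1* and *Adcyap1r1*. For the 3 Gi-coupled receptors control sums of 110, 103, and 106 overlapped with *Slc39a8*-NSKO sums of 113, 110, and 108. The receptors were chosen with results of these data known, so no test was made of these sums.

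None of the receptors passed an adjusted p of 0.05. In edgeR's quasi-likelihood test over 16330 genes, 0 of the 7 receptors tested passed, against 0.098% of all genes, and *Adrb1* and *Drd2*, both higher in *Slc39a8*-NSKO mice, had an unadjusted p below 0.05, as did 5.39% of all genes. The groups did not overlap for *Adrb1* and *Drd2*, as for 10.3% of all genes tested, nor for *Drd1*, which was below the filter on low counts and was not tested. *Drd2* met that filter through its higher values in *Slc39a8*-NSKO mice, so nothing is read from these counts of receptors or from their median. DESeq2 was run without the filter and gave a p for all 8 receptors, with 0 below 0.05 after adjustment and 0 before it. limma-voom tested the same 7 and gave 0 and 2. The share of all genes at an unadjusted p below 0.05 is not given for these 2 tools, so nothing is read from their counts. The median log2 fold change of the 7 was 0.10, beside 0.0011 over all genes tested.

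**Figure D2:**
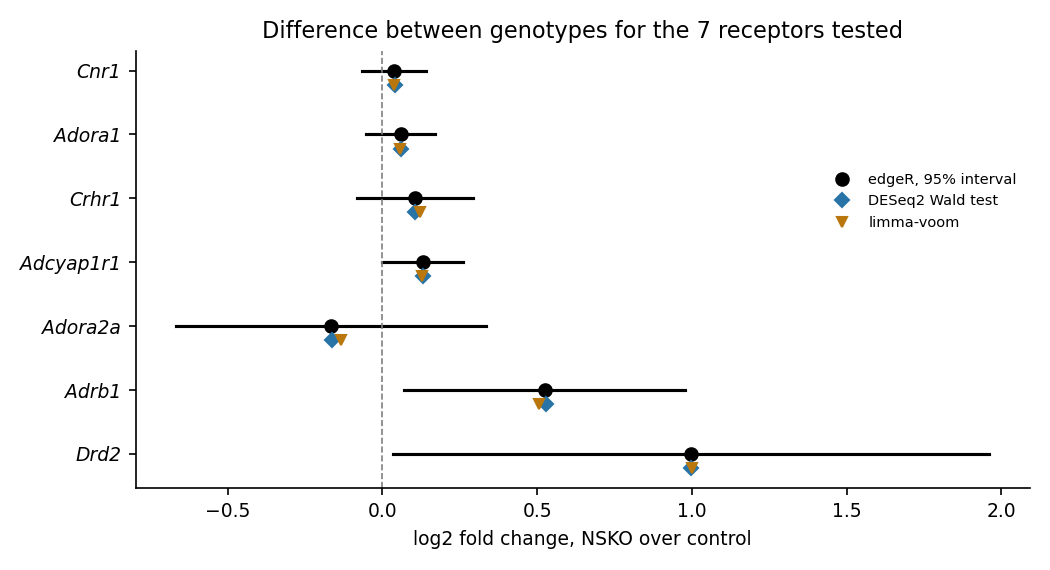
Log2 fold change of *Slc39a8*-NSKO over control for the 7 receptors tested, with edgeR's estimate and its 95% interval in black and the estimates of DESeq2 and limma-voom beside it. The interval is widest for *Drd2* (0.03 to 1.96) and narrowest for *Cnr1* (−0.07 to 0.14), and the side of 0 is the same with all 3 tools for each receptor. Nothing is read from the interval or side of *Drd2*, which met the filter on low counts through its higher values in *Slc39a8*-NSKO mice.

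*Cnr1* encodes the CB1 receptor, the presynaptic receptor for endocannabinoids, and lies on chromosome 4 (GRCm38, plus strand, 33924593 to 33948831). It was at 386, 364, and 372 CPM in control mice 1 to 3 and at 391, 382, and 379 CPM in *Slc39a8*-NSKO mice 1 to 3. The groups overlapped, since control mouse 1 lay above the lower 2 *Slc39a8*-NSKO mice. On the log2 scale the difference was 0.04 (standard error 0.049, edgeR, adjusted p = 0.994), and the ratio of the groups had a 95% interval of 0.955 to 1.104. With 5235 to 7992 counts per mouse, this is the narrowest interval among the receptors, and the values are compatible with any ratio inside it.

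*Adora1*, the gene of the A1 adenosine receptor, which couples to Gi, lies on the minus strand of chromosome 1 from 134199223 to 134235431. *Mybph* overlaps it on the other strand and had at most 4.02 counts in a mouse, and the counts of *Adora1* were not whole in 5 of the 6 mice. The values were 288, 270, and 282 CPM in control and 304, 291, and 281 CPM in *Slc39a8*-NSKO mice 1 to 3. They overlapped between the groups, and *Slc39a8*-NSKO mouse 3 was lower than 2 control mice. On the log2 scale the difference was 0.06 (standard error 0.052, edgeR, adjusted p = 0.994), with an interval of the ratio from 0.964 to 1.13.

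*Adora2a*, on the plus strand of chromosome 10 from 75316877 to 75334784, encodes the A2a adenosine receptor, which answers the same ligand through Gs. Its counts were low, at 55, 32, and 59 for the control mice against 49, 48, and 53 for the *Slc39a8*-NSKO mice. That was 2.89 ± 0.809 CPM in control and 2.58 ± 0.206 CPM in *Slc39a8*-NSKO mice (SD, n = 3 each), and control mice 2 and 3 bounded the values of all other mice. On the log2 scale the difference was −0.16 (standard error 0.233, edgeR, adjusted p = 0.994), with a 95% interval of −0.67 to 0.34. It had the other sign without control mouse 3 (0.07). Per kilobase, *Adora1* exceeded *Adora2a* by 39.3 to 65.5 times within a mouse, with a mean of 53.7 ± 12.9 in control and 60.3 ± 6.68 in *Slc39a8*-NSKO mice (SD, n = 3 each), and these ratios overlapped.

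*Adcyap1r1* encodes the PAC1 receptor for the neuropeptide PACAP and lies on the plus strand of chromosome 6 from 55451978 to 55501451. Its level was 126, 119, and 113 CPM in control and 135, 134, and 122 CPM in *Slc39a8*-NSKO mice 1 to 3. Of the *Slc39a8*-NSKO mice, 2 lay above all control mice and mouse 3 lay among them. The log2 fold change was 0.13 (standard error 0.061, unadjusted p = 0.053, edgeR adjusted p = 0.916), and the ratio had a 95% interval of 0.999 to 1.199. Without any single mouse the log2 fold change lay between 0.09 and 0.18. *Adcyap1*, the gene of PACAP itself, had between 63 and 121 counts in a mouse. Markers of Bergmann glia and astrocytes, cells that also carry this receptor, summed to 1973 to 2281 CPM over 6 genes in control and 2325 to 2378 CPM in *Slc39a8*-NSKO mice. Of these 6 markers 0 passed an adjusted p of 0.05 and 3 (*Aqp4*, *Hopx*, and *Gfap*) were higher at an unadjusted p below 0.05 in edgeR's test, beside 5.39% of all genes in either direction, and their part in the value of *Adcyap1r1* was not tested.

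*Crhr1* encodes the receptor for CRH and urocortin and lies on the plus strand of chromosome 11 from 104132855 to 104175523. Control mouse 1 stood apart from the other mice, at 52.8 CPM, while control mice 2 and 3 were at 67.2 and 68.9 CPM. *Slc39a8*-NSKO mice 1 to 3 were at 66.0, 66.2, and 70.2 CPM, the lower 2 just below and the highest just above the other 2 control mice. On the log2 scale the difference was 0.10 (standard error 0.087, edgeR, adjusted p = 0.994) with all mice and −0.01 without control mouse 1, so that the estimate rests on this mouse. RNA of its known ligands was near 0, with at most 5 counts in a mouse for *Crh*, 1 for *Ucn*, 5 for *Ucn2*, and 1 for *Ucn3*. CRH reaches the cerebellum in fibers from cells elsewhere.

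*Adrb1*, the gene of the β1-adrenergic receptor for noradrenaline and adrenaline, lies on the plus strand of chromosome 19 from 56722199 to 56733113. Control mice 1 to 3 had counts of 49, 36, and 33, against 55, 68, and 72 for the *Slc39a8*-NSKO mice. This was 2.36, 2.50, and 2.12 CPM in control and 2.75, 3.49, and 3.82 CPM in *Slc39a8*-NSKO mice, so that each *Slc39a8*-NSKO mouse was above each control mouse. The ratio of the groups was 1.44, with a 95% interval of 1.05 to 1.97 (log2 fold change 0.52, standard error 0.211). In edgeR p was 0.0269 before adjustment and 0.872 after it, short of the threshold, and the exact two-sided permutation test gave p = 0.1, the lowest this design can reach. The estimate stayed between 0.42 and 0.65 in 14 alternative settings, while the unadjusted p was above 0.05 with DESeq2 (0.0786), and when control mouse 3 (0.0732) or *Slc39a8*-NSKO mouse 2 (0.0696) or 3 (0.108) was left out.

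The β1 receptor is also the main adrenergic receptor of heart muscle, and some heart muscle genes had higher values in the same *Slc39a8*-NSKO mice. The paper reports higher *Myh6* in these mice. Over 6 heart muscle markers the summed level was 2.03 to 2.92 CPM in control and 11.7 to 13.5 CPM in *Slc39a8*-NSKO mice. In edgeR's test 3 of the 4 tested (*Myh6*, *Actc1*, and *Tnnt2*) passed an adjusted p of 0.05, beside 0.098% of all genes. Control mice 1 to 3 had counts of 0, 4, and 6 for *Myh6*, 15, 8, and 0 for *Actc1*, and 10, 12, and 5 for *Tnnt2*. These 3 met the filter on low counts through their higher values in *Slc39a8*-NSKO mice, so nothing is read from their number. The groups overlapped for *Tnni3* (log2 fold change 0.27, edgeR, adjusted p = 0.994), and *Myl7* had 0 counts in all control mice. The part of heart muscle genes in the value of *Adrb1* was not tested. The β receptor gene *Adrb3* had 4 to 9 counts in a mouse.

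Noradrenaline itself is made by dopamine β-hydroxylase, the product of *Dbh*, and taken back up by the transporter that *Slc6a2* encodes. Counts of *Dbh* were 2, 2, and 0 for the control mice against 10, 8, and 20 for the *Slc39a8*-NSKO mice, and those of *Slc6a2* 2, 3, and 2 against 7, 8, and 12. Both were sparse, and in both each *Slc39a8*-NSKO mouse lay above each control mouse, as for 3.09% of all genes below the filter, whatever their level. Without the filter *Dbh* passed (edgeR, adjusted p = 0.0185), as did 0.655% of all genes then tested, and *Slc6a2* did not (0.782). With DESeq2 the adjusted p was 0.962 for *Dbh*. Among further genes listed for noradrenergic neurons the groups overlapped for the following, with 79 to 135 counts for *Th*, 44 to 80 for *Slc18a2*, 63 to 126 for *Ddc*, at most 9 for *Gal*, and at most 2 for *Phox2a* in a mouse. The 8 genes of this list together summed to 13.7 to 16.2 CPM in control and 13.1 to 16.6 CPM in *Slc39a8*-NSKO mice, and this list was written after the counts of *Dbh* and *Slc6a2* had been seen.

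*Drd2*, on the plus strand of chromosome 9 from 49340627 to 49408177, encodes the D2 dopamine receptor, which couples to Gi. Counts were 6, 8, and 4 for the control mice against 12, 14, and 16 for the *Slc39a8*-NSKO mice, or 0.368 ± 0.164 and 0.723 ± 0.125 CPM (SD, n = 3 each). The groups did not overlap, and the highest control mouse was close to the lowest *Slc39a8*-NSKO mouse (0.556 against 0.601 CPM). The log2 fold change was 0.996 with a 95% interval of 0.03 to 1.96 (standard error 0.448, unadjusted p = 0.0436, edgeR adjusted p = 0.908). *Drd2* met the filter on low counts through its higher values in *Slc39a8*-NSKO mice, so nothing is read from this interval or its unadjusted p. The unadjusted p was 0.0627 without the filter on low counts, 0.0542 with the replicate number as a block, 0.147 with DESeq2, and above 0.05 in 5 of the 6 fits that left out a mouse, in which the log2 fold change lay between 0.82 and 1.37. With at least 10 counts required in every mouse the gene was not tested.

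*Drd1*, on the minus strand of chromosome 13 from 54051183 to 54055705, encodes the D1 dopamine receptor, which couples to Gs. Counts were 4, 2, and 3 for the control mice against 8, 4, and 4 for the *Slc39a8*-NSKO mice. In CPM, *Slc39a8*-NSKO mice 2 and 3 (0.205 and 0.212) lay just above control mice 1 and 3 (0.193 each), so that the groups did not overlap. Without the filter on low counts the log2 fold change was 0.62 with a 95% interval of −1.02 to 2.26 (edgeR, adjusted p = 0.928). At this depth the counts are compatible with differences across this wide interval, in either direction.

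**Figure D3:**
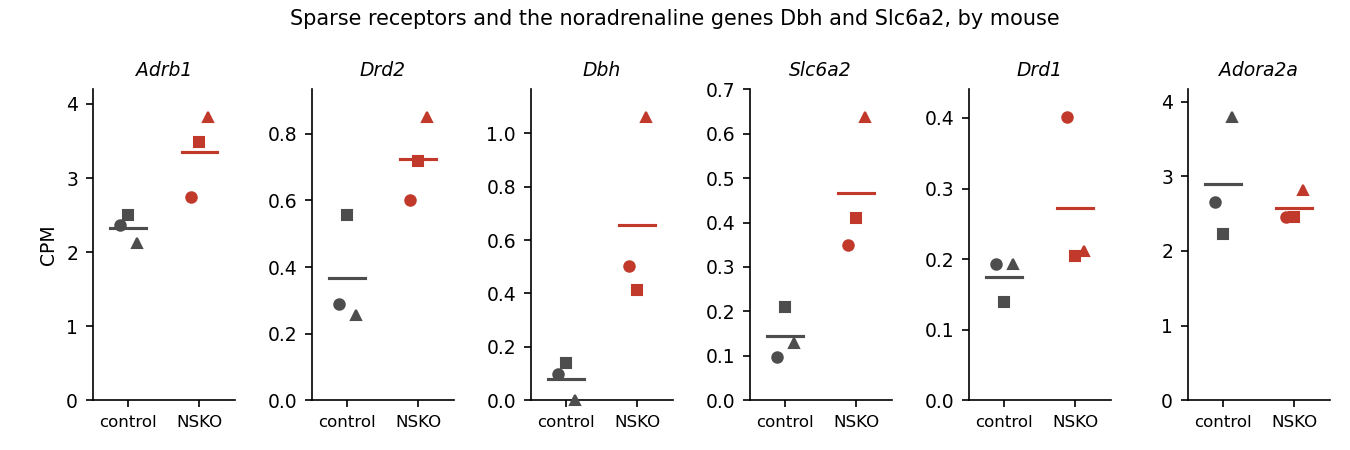
CPM of the sparse receptors *Adrb1*, *Drd2*, *Drd1*, and *Adora2a* and of the noradrenaline genes *Dbh* and *Slc6a2* in each mouse, on linear axes that start at 0 and differ between panels, with a bar at the mean of each group. *Slc39a8*-NSKO mice lie above control mice in every panel except that of *Adora2a*, by little for *Drd1*.

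**Figure D4:**
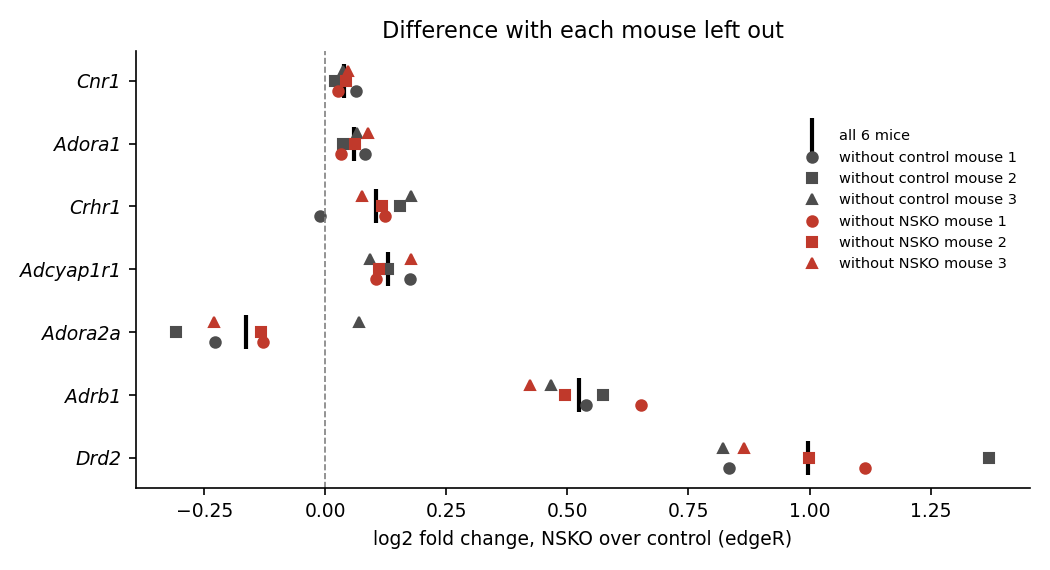
Log2 fold change of each tested receptor from edgeR with all 6 mice (black bar) and with each mouse left out (symbols, colored by the group of the mouse left out). *Crhr1* moves to −0.01 without control mouse 1 and *Adora2a* to 0.07 without control mouse 3, and *Adrb1* stays on the side of higher values. So does *Drd2*, from which nothing is read, since it met the filter on low counts through its higher values in *Slc39a8*-NSKO mice.

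Correlations between receptors over the 6 mice ranged from −0.654 (*Adora2a* with *Adcyap1r1*) to 0.919, and are given as a description. *Cnr1* and *Adora1* varied together most closely of the abundant receptors, with a Pearson's r of 0.919 for log2 CPM over the 6 mice. *Adrb1* and *Drd2* had an r of 0.896. Both were higher in each *Slc39a8*-NSKO mouse, which by itself raises an r over both groups. No r within a group was computed. *Adcyap1r1* had an r of 0.781 with *Adora1* and 0.771 with *Cnr1*. *Crhr1* had an r of −0.416 with *Cnr1*, −0.220 with *Adora1*, and 0.57 with the sparse *Drd2*. Among 10288 other genes with a mean of at least 10 CPM, the values of *Cnr1* were most like those of *Kif5c* (r = 0.998) and *Cyb5b* (0.996), those of *Adora1* like *Mtpn* (0.991) and *Pum2* (0.989), those of *Adcyap1r1* like *Rpe* (0.992) and *Epdr1* (0.979), and those of *Crhr1* like *Gm45062* and *Hps4* (0.990 each). For the sparse receptors the nearest of 10289 genes were *Etv3* (0.995) and *Mtfp1* (0.983) for *Adrb1*, *Bet1l* (0.993) and *Snx6* (0.980) for *Adora2a*, and *Ehd1* (0.989) and *Arntl* (0.987) for *Drd2*. Each is among the highest of all these values over the same 6 libraries, which share depth and genotype, and is given as a description.

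Other receptors of the same kinds gave a wider view. Of 35 further Gs-coupled receptors, 34 were in the table and 15 were tested, and *Gpr52* was not analysed here. In edgeR's test 0 of the 15 passed an adjusted p of 0.05 in either direction, with a median log2 fold change of −0.01, and 3 had an unadjusted p below 0.05, beside 5.39% of all genes. DESeq2, run without the filter, gave a p for 32 receptors of this list, with 0 below 0.05 after adjustment and 2 before it. limma-voom tested the same 15 and gave 0 and 3. The share of all genes at an unadjusted p below 0.05 is not given for these tools, so nothing is read from their counts. *Vipr1*, a receptor for the peptide VIP and for PACAP, was lower in each *Slc39a8*-NSKO mouse, by little between the nearest mice (7.82 ± 1.03 in control and 5.58 ± 1.11 CPM in *Slc39a8*-NSKO mice; SD, n = 3 each), with a log2 fold change of −0.50 (edgeR, adjusted p = 0.774). *Gpr3*, a receptor that raises cAMP without a known need for a ligand and one of the 3 most abundant of this list, was at 6.82 ± 1.79 and 4.58 ± 0.357 CPM (SD, n = 3 each), with overlapping groups, a log2 fold change of −0.56, and an adjusted p of 0.822. Without control mouse 1 these were −0.77 and 0.0956, and the adjusted p was 0.166 or more in every other setting. *Htr7*, a serotonin receptor, was higher in each *Slc39a8*-NSKO mouse, at 0.750 ± 0.255 and 1.34 ± 0.123 CPM (SD, n = 3 each; log2 fold change 0.86, edgeR, adjusted p = 0.867). *Pth1r* at 3.73 and *Gpr12* at 1.97 CPM per kilobase completed the 3 most abundant, so that *Crhr1* and *Adcyap1r1* stood above every other Gs-coupled receptor listed.

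Of 45 further Gi-coupled receptors, all in the table, 28 were tested with edgeR and with limma-voom. DESeq2, run without the filter, gave a p for all 45. With each tool 0 passed an adjusted p of 0.05 in either direction and 0 had an unadjusted p below 0.05. In edgeR's test 5.39% of all genes had such an unadjusted p. The median log2 fold change of the 28 in edgeR was 0.06, with 21 above and 7 below 0 and a range from −0.38 to 0.50. The most abundant were *Grm4*, the glutamate receptor of parallel fiber endings, at 93.5, *Gabbr1*, a subunit of the GABA-B receptor, at 93.4, and *S1pr1*, a receptor for sphingosine 1-phosphate, at 53.5 CPM per kilobase. *Grm4* and *Gabbr1* thus exceeded *Cnr1*, and the log2 fold changes of the 3 lay between −0.06 and 0.06.

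Of 29 genes listed for making or clearing the ligands, 20 were tested with edgeR. Of these 0 passed an adjusted p of 0.05 in either direction, and the median log2 fold change was 0.0048. *Napepld*, an enzyme that makes the endocannabinoid anandamide, was lower in each *Slc39a8*-NSKO mouse (9.06, 8.88, and 7.28 CPM, against 11.6, 9.74, and 9.70 in control mice), with a log2 fold change of −0.31 (unadjusted p = 0.0378, edgeR adjusted p = 0.908). *Mgll*, which degrades the endocannabinoid 2-AG, and *Dagla*, which makes it, were among the 3 most abundant at 20.9 and 20.5 CPM per kilobase, with log2 fold changes of −0.04 and 0.10. DESeq2, run without the filter, gave a p for all 29, with 0 below 0.05 after adjustment and 1 before it (*Dbh*, not among the 20). limma-voom tested the same 20 and gave 0 and 1 (*Napepld*). With edgeR, 5.39% of all genes had an unadjusted p below 0.05. That share is not given for the other tools, so nothing is read from their counts.

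Of 8 genes for receptor kinases, arrestins, and the CB1-binding protein *Cnrip1*, all tested, 0 passed an adjusted p of 0.05 with edgeR, DESeq2, or limma-voom. Each tool gave *Grk3* alone an unadjusted p below 0.05, as 5.39% of all genes had in edgeR's test. That share is not given for DESeq2 or limma-voom. *Grk3*, a kinase that desensitizes active receptors, was at 140 ± 3.08 in control and 127 ± 9.07 CPM in *Slc39a8*-NSKO mice (SD, n = 3 each), with a log2 fold change of −0.13 (edgeR, adjusted p = 0.908). *Grk2* and *Arrb1* were more abundant, at 60.9 and 25.8 CPM per kilobase, with log2 fold changes of −0.01 and 0.03.

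**Figure D5:**
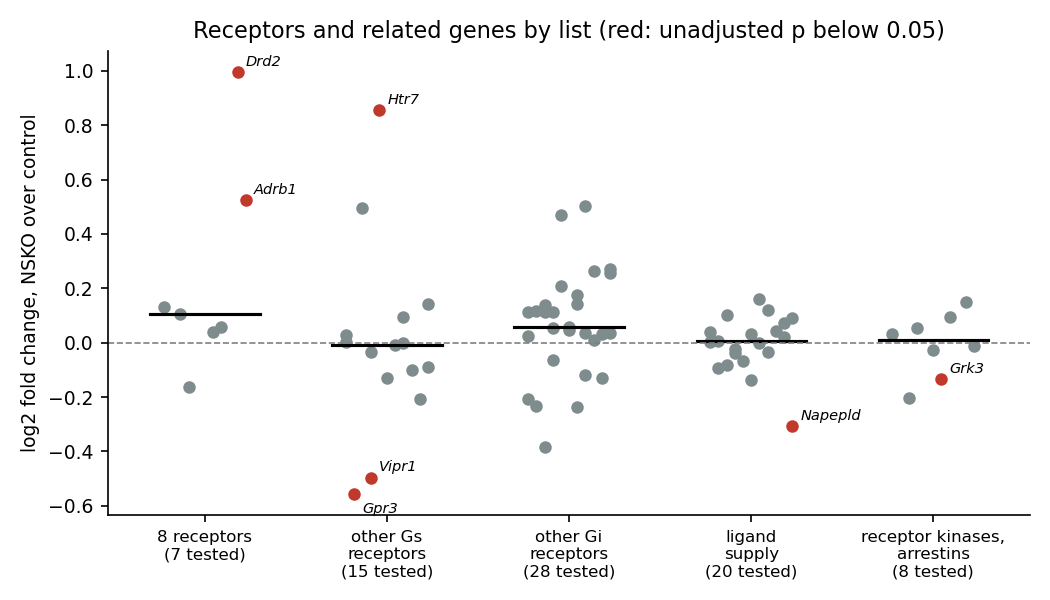
Log2 fold change of *Slc39a8*-NSKO over control from edgeR for each tested gene of the 5 lists, with a black bar at the median of each list and genes with an unadjusted p below 0.05 in red with their names. The 7 red points lie in 4 lists and on both sides of 0, and none of the genes shown passed an adjusted p of 0.05.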

How the data were processed

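RNA-Seq was performed on cerebellum from 3 control and 3 *Slc39a8*-NSKO mice. The authors deposited a table of expected counts that are scaled neither to depth nor to length. Per the methods and the submitters' processing notes, STAR was the aligner, the reference came from Ensembl, and FastQC, RSEM, DESeq2, and mm10 are also named, with versions not given in the sources used here. The labels name a directional kit and the methods a kit without that word, so use of the strand is unsettled. Of 53715 genes, 53620 were matched to names, positions, and exons of GENCODE M21 (GRCm38), and 92 spike-in sequences were left out. Counts were rounded. Genes kept by filterByExpr were analysed in R 4.3.3 with TMM normalization and the quasi-likelihood test of edgeR 4.0.16, no covariate, and Benjamini-Hochberg adjustment over all 16330 genes tested. Intervals (95%) came from the quasi-likelihood standard error. log2 CPM for correlations had a prior count of 2. Alternatives were DESeq2 1.42.0, limma-voom (limma 3.58.1), 2 other normalizations, 2 other filters, unrounded counts, the replicate number as a block, and each mouse left out. Tests were tried on simulated data. Any 2 mice differed by more than sampling noise (chi-square per degree of freedom 4.01 to 9.63). The methods state biological replicates and a legend technical ones; if they were technical, p-values measure only that spread. Receptors and lists were chosen with earlier results of these data known. Named are the 8 receptors, *Slc39a8*, list genes past the adjusted threshold or an unadjusted 0.05, the 3 most abundant of each list, markers beside a result, and the 2 most alike genes per tested receptor. Genes below the filter other than *Drd1*, and the members of the ligand lists given by counts, were named after their values were seen. Some genes that these rules name are not reported here.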

Additional observations from a re-analysis of the deposited data

How the results depend on the processing

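All 7 tested receptors stayed short of an adjusted p of 0.05 in every one of the alternative settings run, and so did the further Gs- and Gi-coupled receptors. The direction held for *Cnr1*, *Adora1*, *Adcyap1r1*, and *Adrb1* in each setting. It did so for *Drd2* in each setting that tested it. That gene met the filter on low counts through its higher values in *Slc39a8*-NSKO mice, so nothing is read from its direction. Dropping single mice moved *Adora2a* between log2 fold changes of −0.31 and 0.0702, the latter without control mouse 3, and *Crhr1* between −0.0116, without control mouse 1, and 0.18, and both signs turned there. Over all genes, 16 of 16330 passed with edgeR, and 178 of 27187 with edgeR without a filter on low counts. DESeq2, also run without that filter, gave 37 of 27181. With a mouse left out of edgeR's test, between 9 (without *Slc39a8*-NSKO mouse 2) and 38 (without control mouse 1) passed. The number of genes past the threshold therefore depends on these choices, and the cause was not tested. With the replicate number as a block, 41 genes and 0 receptors passed. The numbers are not known to pair the mice: deviations of same-numbered mice correlated with r = 0.145, 0.117, and 0.0125, and control mouse 3 correlated best with *Slc39a8*-NSKO mouse 1. *Drd2* could not be tested with at least 10 counts in every mouse. Depth limits *Drd1*, *Drd2*, *Adora2a*, and *Adrb1*, whose counts were at most 72 in a mouse.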

Other observations

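Some further receptors below the filter on low counts were higher in each *Slc39a8*-NSKO mouse than in each control mouse, as were 3.09% of all genes below the filter. *Chrm4*, a muscarinic acetylcholine receptor that couples to Gi, had counts of 6, 4, and 5 for the control mice against 15, 9, and 12 for the *Slc39a8*-NSKO mice. *Sstr4*, a somatostatin receptor that couples to Gi, had 0, 3, and 1 against 6, 8, and 8. *Adrb3*, a β-adrenergic receptor, had 6, 4, and 5 against 8, 7, and 9. These 3 were the only such receptors among the 17 Gs-coupled and 17 Gi-coupled receptors of the lists that had counts but were below the filter. Of the 34, 0 were lower in each *Slc39a8*-NSKO mouse. The share of all genes below the filter that were lower was not computed. The share of 3.09% covers genes below the filter at any level, so nothing is read from the 3 or the 0. Without the filter their adjusted p values were 0.905, 0.709, and 0.933 from edgeR's quasi-likelihood test, and they were named after their values were seen.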
